A study of Mus musculus with 3 samples.

Results

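*Itgal*, *Itgam*, *Itgax*, *Itgae*, and *Itgb2*, the leukocyte integrin genes, are described here by the H3K27ac peaks around them in the tibialis anterior (TA) muscle of mice at 3 ages. They were taken by name from the 84 genes of the extracellular matrix (ECM) and adhesion on the sheet that the study examined. They are thus 5 of 84 genes. The choice by name used no measured value, although earlier results of these data were known when it was made. The ChIP-seq data consist of 1 library of the histone mark from C57/BL6 mice at 2 months, 1 at 10 months, and 1 at 20 months. All mice were untreated and of the same strain, the group of 10 months covers a span of 10 to 12 months in the methods of the study, and the number of animals behind a library is not given in the sources used here. The tissue label names TA muscle, while the extraction text of the same labels speaks of satellite cells and of RNA. The purpose of the series was to follow H3K27ac at regulatory regions, and at those of ECM genes in particular, as muscle ages.

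Integrins are adhesion receptors made of 1 α and 1 β chain. *Itgal*, *Itgam*, and *Itgax* encode α chains that pair with the β chain of *Itgb2*, and the dimers let lymphocytes, neutrophils, macrophages, and dendritic cells hold to vessel walls, to complement, and to other cells. *Itgae* encodes the α chain of an integrin of intraepithelial and other tissue-resident T cells, which pairs with another β chain and binds E-cadherin. H3K27ac is an acetylation of histone H3 that lies over promoters and enhancers in use. In skeletal muscle these genes are expected in resident and infiltrating immune cells and not in the myofibers that give most of the nuclei. The chromatin was of the whole tissue, so fewer cells of a type and less of the mark per cell cannot be told apart. The positions of myofiber marker genes in mm9, the genome build of the files, were not used here, and the tissue label was therefore not checked against them.

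All 5 genes lie on the plus strand in mm9. *Itgal* (chr7:134439774-134478651, 38.9 kb), *Itgam* (chr7:135206154-135262005, 55.9 kb), and *Itgax* (chr7:135273082-135294171, 21.1 kb) share a chromosome. The start of *Itgam* is 766.4 kb from that of *Itgal*, and the start of *Itgax* is 66.9 kb from that of *Itgam*. *Itgae* spans chr11:72904097-72948336 (44.2 kb) and *Itgb2* spans chr10:76993093-77028419 (35.3 kb). A peak was assigned to the nearest transcription start site (TSS) of the 84 genes when its closer edge was within 100 kb. It was a promoter peak within 2.5 kb of the TSS and a distal peak beyond.

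Of the 5 genes, *Itgam* and *Itgax* have an entry in the RefSeq promoter table of GRCm38.p6, and the 250 bases before their starts are shown. They lie on the plus strand at chr7:128062390-128062639 for *Itgam* and at chr7:128129300-128129549 for *Itgax* in GRCm38.p6, a later build than that of the peak lists. Capitals mark the core motif of PU.1, a transcription factor of myeloid cells, searched as GAGGAA or, on the other strand, TTCCTC.
Itgam: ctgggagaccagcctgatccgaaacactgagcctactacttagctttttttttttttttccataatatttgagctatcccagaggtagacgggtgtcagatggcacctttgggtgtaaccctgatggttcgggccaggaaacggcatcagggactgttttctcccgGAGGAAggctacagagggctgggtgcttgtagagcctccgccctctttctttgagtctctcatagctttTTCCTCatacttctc
Itgax: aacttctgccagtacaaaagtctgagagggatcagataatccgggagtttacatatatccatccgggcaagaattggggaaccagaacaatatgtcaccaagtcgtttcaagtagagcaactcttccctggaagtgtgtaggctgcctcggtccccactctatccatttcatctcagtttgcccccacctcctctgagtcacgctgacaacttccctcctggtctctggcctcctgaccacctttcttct
In the *Itgam* sequence the PU.1 core stands from 84 to 79 bp before the start on the plus strand and from 15 to 10 bp before it on the minus strand. The GC box GGGCGG stands from 47 to 42 bp before the start on the minus strand and overlaps neither PU.1 core, and the TATA box TATAAA is not in this window. The *Itgax* sequence holds none of these 3 motifs. Of the 32851 promoter sequences of the table, cut to the same 250 bases and searched on both strands, 23.3% hold the PU.1 core, 32.7% the GC box, and 12.4% the TATA box. A match is a description of the letters and not of binding. The GC content is 49.6% for *Itgam* and 50% for *Itgax*.

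The 3 peak lists differed in length and in what a peak needed to be listed. In order of age they held 17884, 35221, and 44752 peaks, from about 15930000, 18890000, and 26300000 uniquely mapped reads as recovered from the lists. The level of a peak is given as its summit coverage, which is the number of reads over the summit divided by the mean over the genome (1.261, 2.242, and 2.504 reads in order of age). The smallest summit listed reached 6.34, 4.46, and 3.99 times that mean. With 1 library per age there is no replicate check and no test of age, and every interval below is a 95% interval that covers counting error only.

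The promoters of the leukocyte integrin genes were nearly free of called H3K27ac peaks. None of the 5 genes had a promoter peak at 2 months and none at 10 months, whereas 26.2% and 34.5% of the 84 ECM genes had one at these ages. At 20 months 1 of the 5 had one, against 50% of the 84. With 5 genes the exact binomial interval (Clopper-Pearson) of the share was wide, from 0 to 52.2% at 2 and at 10 months and from 0.505 to 71.6% at 20 months, and it held the share of the 84 genes at each age.

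The single promoter peak belonged to *Itgax*, the α chain used as a marker of dendritic cells. It was seen at 20 months at chr7:135271217-135271430 in mm9, was 214 bp wide, and ended 1.65 kb upstream of the TSS. Its summit held 15 reads, 5.99 times the genome mean or 0.570 RPM, the number of reads scaled to the mapped reads of the library, and stood at percentile 4.55 of the summits of its list. In genome means it was lower than every summit of the 2-month list (6.34 or more) and higher than the smallest of the 10-month list (4.46). In RPM it was above the smallest summit of both lists (0.502 at 2 months and 0.529 at 10 months). Whether a summit of this height would have been listed at 2 months thus depends on the scale. No peak of any age lay closer than 1.65 kb to the start of *Itgax* or closer than 46.45 kb to that of *Itgam*, whose promoter sequence carries the PU.1 cores shown above.

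Few peaks overlapped the transcribed parts of these genes. No peak overlapped any of the 5 genes at 2 months or at 20 months, when 28.6% and 56.0% of the 84 genes had a peak over the transcribed part. At 10 months 2 of the 5 did, against 45.2% of the 84. These shares of the 84 include peaks near the TSS. With those within 2.5 kb of the TSS left out, 9, 25, and 24 of the 84 genes had one in order of age. Of the 5 genes 0, 2, and 0 did. A share of 0 of 5 has an interval of 0 to 52.2%, as for the promoters. At 10 months *Itgae* had 2 peaks near the end of the gene, 40.53 and 41.03 kb downstream of the TSS, with 15 and 12 summit reads (6.69 and 5.35 times the genome mean). *Itgb2* had 1 peak 20.7 kb downstream with 16 summit reads (7.14 times the genome mean). All 3 were low and stood alone, since neither the 2-month nor the 20-month list held a peak at these places. *Itgal*, *Itgam*, and *Itgax* had no peak over the transcribed part at any age.

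The stretch around each TSS without any peak was measured to the nearest peak on each side. For *Itgal*, the α chain of lymphocytes, it measured 71.0 kb at 2 months, 70.4 kb at 10 months, and 70.5 kb at 20 months, and the whole gene lay in it at each age. *Itgam* and *Itgax* lay in 1 common stretch of 233.1 kb at 2 months and of 189.4 kb at 10 months. At 20 months the *Itgax* promoter peak divided it, and 122.7 kb remained around *Itgam* and 77.6 kb around *Itgax*. For *Itgae* the stretch was 111.9, 82.6, and 89.9 kb at 2, 10, and 20 months, and for *Itgb2*, the shared β chain, 66.3, 34.1, and 64.3 kb. At 2 months each of these stretches was shorter than the median of the other ECM genes, 408 kb. At 10 months the stretch of *Itgam* and *Itgax* was longer than the median of 108 kb. At 20 months those of *Itgam*, *Itgae*, and *Itgax* were longer than the median of 76.2 kb. The remaining stretches were shorter than the median at both later ages. *Itgb1* had no peak on one side at 10 months, which left 78 of the 79 other genes at that age. The other genes ranged from stretches of 0, where a peak covered the TSS, to several Mb, while none of the 5 genes had a peak over the TSS.

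**Figure D1:**
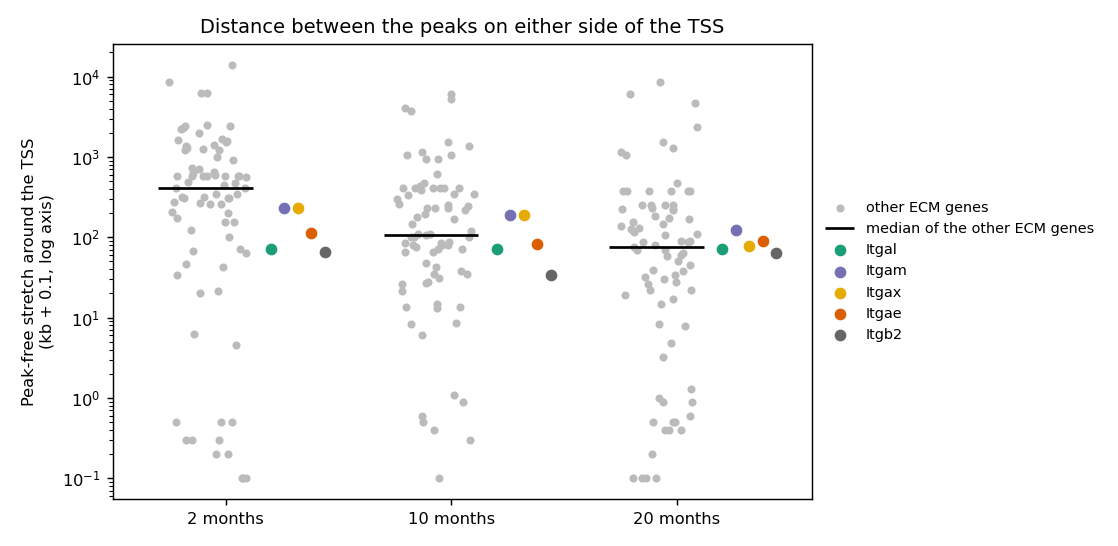
Length of the stretch without a peak around the TSS (vertical axis, kb plus 0.1, log axis) at 2, 10, and 20 months for the other ECM genes (grey points, black line at their median) and the 5 leukocyte integrin genes (colored points), with 1 library per age. The 5 genes sit between 66.3 and 233 kb at 2 months and between 64.3 and 123 kb at 20 months, within the range of the other genes.

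**Figure D2:**
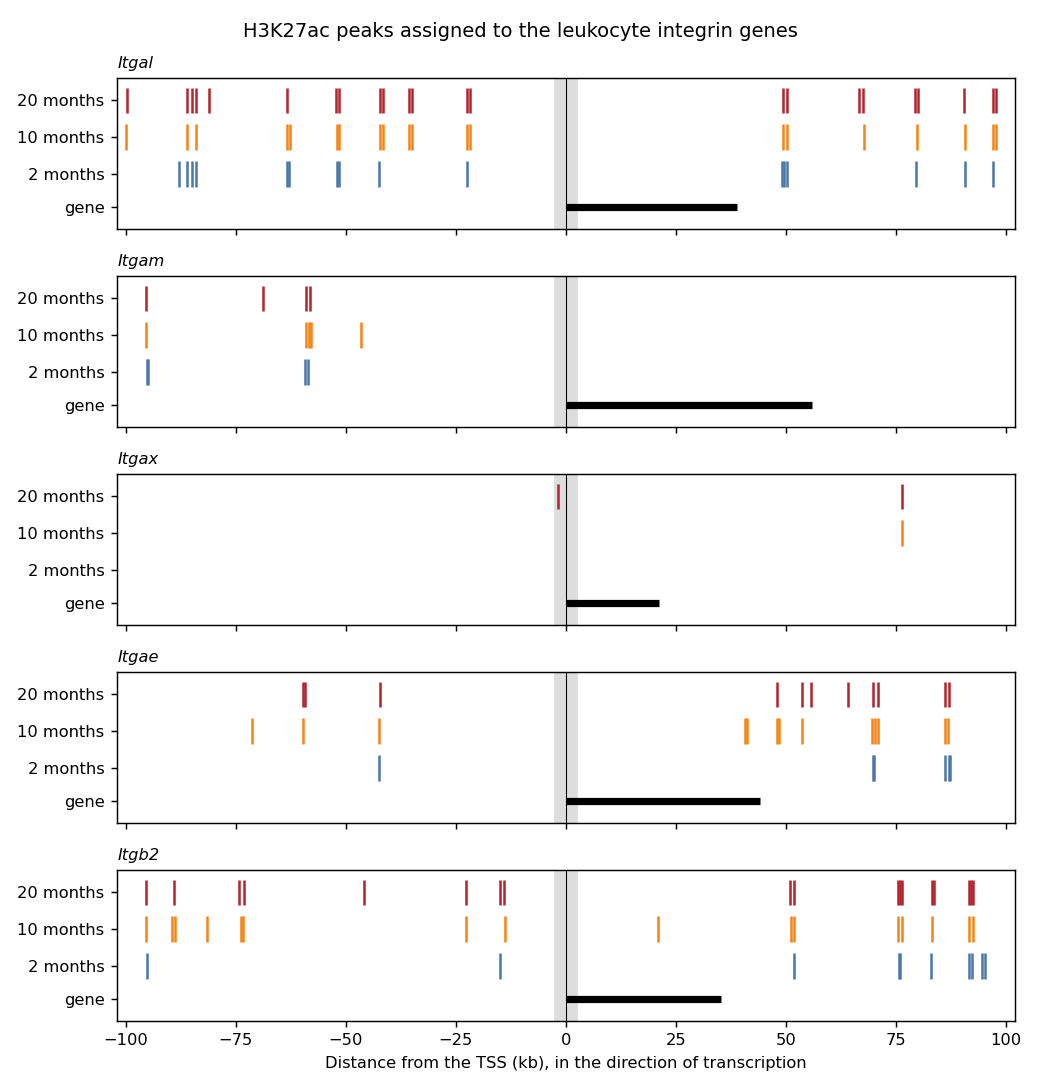
H3K27ac peaks assigned to each leukocyte integrin gene by distance from its TSS (horizontal axis, kb, upstream to the left), with 1 row per age, 1 mark at the middle of each peak, the gene as a black bar, and the promoter window of 2.5 kb on either side in grey. The marks stand away from the genes, apart from 3 marks inside *Itgae* and *Itgb2* at 10 months and 1 in the promoter window of *Itgax* at 20 months.

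Peaks were more numerous away from the promoters. Distal peaks were found at 4 of the 5 genes at 2 months and at 5 of 5 at 10 and 20 months, while 48.8%, 67.9%, and 75.0% of the 84 genes had one at the 3 ages. The intervals were 28.4 to 99.5% at 2 months and 47.8 to 100.0% at the later ages, and they held the share of the 84 genes at each age. Summed over the 5 genes, there were 36, 55, and 57 distal peaks in order of age. The genes on chr7 had 20, 26, and 28 of them, with each peak counted once. At 2 months the 5 genes thus held 18.6% of the 194 distal peaks of the 84 genes. That part was 15.8% of 348 at 10 months and 12.4% of 458 at 20 months.

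*Itgal* rose from 16 distal peaks at 2 months to 20 and 23 at the later ages. This placed it second of the 84 genes at 2 months and first at both later ages. *Itgb2* had 10, 16, and 18 and stood 7th, 4th, and 4th, the last with 1 other gene. *Itgae* had 6, 13, and 11 distal peaks and ranked 10th, 5th, and 13th, so its number was highest at 10 months. *Itgam*, the α chain of neutrophils and macrophages, had 4, 5, and 4 and moved from the 16th to the 25th and 38th place as other genes of the sheet gained peaks. *Itgax* lacked a distal peak at 2 months and had 1 at each later age.

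**Figure D3:**
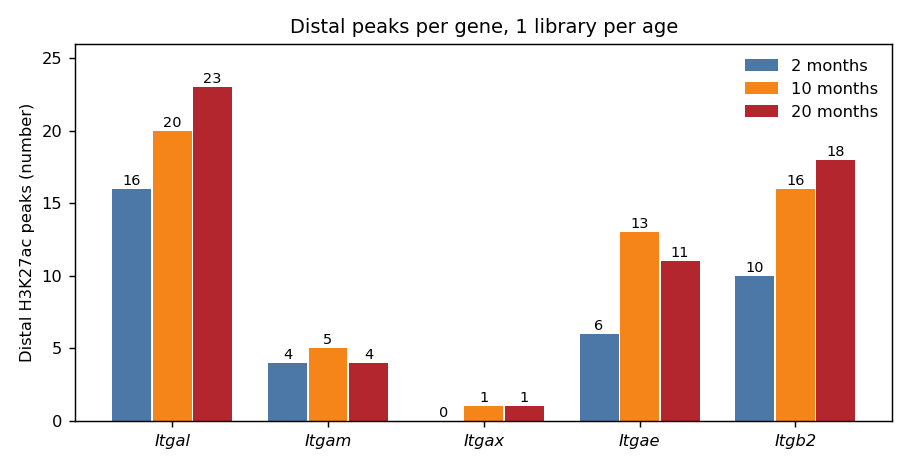
Number of distal H3K27ac peaks (vertical axis) assigned to each leukocyte integrin gene (horizontal axis) at 2, 10, and 20 months, each bar being the count in 1 library. *Itgal* reaches 23 peaks at 20 months and *Itgax* 1, and *Itgam* has 4 peaks at 2 and at 20 months.

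The bases covered by these peaks grew more than their number. Distal peaks covered 5.0 kb around *Itgal* at 2 months, 10.74 kb at 10 months, and 11.36 kb at 20 months. For *Itgb2* they covered 2.91, 8.3, and 9.34 kb, and for *Itgae* 1.81, 5.08, and 4.84 kb. Even around *Itgam*, whose number of peaks was equal at 2 and 20 months, the covered length was 1.03 kb at 2 months, 2.77 kb at 10 months, and 3.12 kb at 20 months. The median width of a distal peak of the 5 genes was 255 bp at 2 months, 418 bp at 10 months, and 408 bp at 20 months. The other ECM genes had medians of 267, 416, and 351 bp. The smallest width listed, which follows the fragment length of the library, was 148, 222, and 178 bp, and its part in the widths was not tested.

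From 2 to 20 months 4 of the 5 genes gained distal peaks and *Itgam* had equal numbers, while 67.9% of the 84 genes gained. Summed over the 5 genes, the number at 20 months was 1.58 times that at 2 months and the number at 10 months 1.53 times. Over all 84 genes the ratios were 2.36 and 1.79, and the whole lists were 2.502 and 1.969 times as long. The distal peaks of the 5 genes made up 0.201% of the 2-month list (interval 0.141 to 0.279%), 0.156% of the 10-month list (0.118 to 0.203%), and 0.127% of the 20-month list (0.0965 to 0.165%). The increase in number depended on which peaks were kept. When each list was shortened to its 17884 peaks of smallest q, the length of the 2-month list, the 5 genes had 36 distal peaks at each age. They had 15, 35, and 40 in order of age in the 50% of a list with smaller q, and 17, 44, and 47 among summits that reached 10 genome means. Per gene the lists of equal length gave 16, 18, and 17 for *Itgal*, 4, 3, and 3 for *Itgam*, 0, 1, and 1 for *Itgax*, 6, 4, and 5 for *Itgae*, and 10, 10, and 10 for *Itgb2*. The promoter peak of *Itgax* was not in the list of equal length.

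The distal peaks lay far out. Beyond 50 kb from the TSS stood 30 of the 36 peaks of 2 months (83.3%), 38 of the 55 peaks of 10 months (69.1%), and 43 of the 57 peaks of 20 months (75.4%), whereas the other 79 ECM genes had 54.4%, 48.8%, and 51.1% there. The median distance was 77.7, 63.1, and 68.8 kb for the 5 genes and 53.9, 48.3, and 50.9 kb for the others. Inside their own gene were 0 of 36 distal peaks at 2 months (interval 0 to 9.74%), 3 of 55 at 10 months (5.45%, interval 1.14 to 15.1%), and 0 of 57 at 20 months (0 to 6.27%). For the other genes these shares were 11.4%, 14.7%, and 13.7%. The median gene length was 38.9 kb for the 5 genes (21.1 to 55.9 kb) and 34.8 kb for the others. The others ranged more widely, from 3.21 to 1100 kb, and the part of gene length in these shares was not tested. Neighboring peaks share their surroundings, so they are not independent of each other.

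The sides differed among the 5 genes. All peaks assigned to *Itgam* lay upstream, and the nearest was 58.37 kb away at 2 months, 46.45 kb at 10 months, and 57.6 kb at 20 months. The rule of the nearest TSS gives peaks closer to *Itgax* to that gene. Whatever their assignment, the first peaks downstream of the *Itgam* TSS lay 174.8, 142.9, and 65.1 kb away in order of age. The last of these was the *Itgax* promoter peak, within 100 kb of both genes. *Itgal* had 10 upstream and 6 downstream peaks at 2 months, 13 and 7 at 10 months, and 14 and 9 at 20 months, and its downstream peaks began past the end of the gene. *Itgae* had 1 upstream and 5 downstream peaks at 2 months, 3 and 10 at 10 months, and 3 and 8 at 20 months. *Itgb2* had 2 and 8, 8 and 8, and 8 and 10, so it gained upstream peaks from 2 to 10 months. Only *Itgb2* and *Itgal* had a distal peak within 25 kb of the TSS at any age.

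Other genes stand close to these 5. In the RefSeq order of GRCm38.p6 the nearest protein-coding genes before *Itgal* are *Sephs2*, *Dctpp1*, and *Zfp771*, and after it come the zinc finger genes *Zfp768*, *Zfp747*, and *Zfp764*. *Itgam* follows *Trim72*, a membrane repair gene of muscle, and *Pycard*, an adaptor of inflammasomes. It is followed by *Itgax*, *Itgad*, which encodes a further α chain that pairs with the β chain of *Itgb2*, and *Cox6a2*, a cytochrome c oxidase subunit of heart and skeletal muscle. *Itgax* is also followed by *9130023H24Rik*. *Itgae* stands between *Ncbp3*, *Camkk1*, and *P2rx1* on one side and *Haspin*, *P2rx5*, and *Emc6* on the other. *Itgb2* stands between *Fam207a*, *Gm51791*, and *Adarb1* on one side and *Pttg1ip*, *Sumo3*, and *Ube2g2* on the other. *Mylpf*, a fast myosin light chain gene, is the 6th gene before *Itgal*. The peak lists are in mm9, no position of these neighbors in that build was used, and whether a distal peak lies at the promoter of one of them was not tested.

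The peaks of the 3 lists that touch each other made up 64 distal regions around the 5 genes. A peak was present at all ages in 25 of them (39.1%), at 10 and 20 months in 19 (29.7%), at 2 and 20 months in 3 (4.69%), and at 2 and 10 months in 0. Single ages held 3 regions at 2 months (4.69%), 7 at 10 months (10.9%), and 7 at 20 months (10.9%). Of all 52684 regions of the genome 20.1% had a peak at all ages, 33.8% at both later ages alone, 24.6% at 20 months alone, and 8.12% at 2 months alone. Of the 462 distal regions of the other ECM genes 20.3% had a peak at all ages and 26.8% at 20 months alone. *Itgal* held 12 of the 25 regions present at all ages, *Itgb2* 6, *Itgae* 4, *Itgam* 3, and *Itgax* 0. At *Itgae* 4 of 15 regions had a peak at 10 months alone, and the 2 regions inside the gene were among them.

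In the 25 regions called at all ages the summit coverage was higher at both later ages. Their summit coverage had a median of 10.31 genome means at 2 months (lowest 7.14, highest 21.4), 27.65 at 10 months (12.5 to 44.6), and 25.16 at 20 months (16.0 to 54.3). All 25 were higher at 10 than at 2 months, with a median ratio of 2.08, and the ratio of the summed reads was 2.26 (interval 2.01 to 2.53). All 25 were also higher at 20 than at 2 months, with a median ratio of 2.33 and a ratio of summed reads of 2.31 (2.07 to 2.59). A rise was the rule in the genome, where 93.5% and 95.8% of the 10599 regions called at all ages were higher at 10 and at 20 months, with median ratios of 1.95 and 2.08. The 94 such regions of the other ECM genes had median ratios of 2.099 and 2.166.

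Taken region by region, the interval of the ratio lay above 1 for 19 of 25 at 10 against 2 months, where 58.1% of the regions of the genome did so. At 20 against 2 months it lay above 1 for 21 of 25, against 65.8% in the genome. It lay below 1 for 0 of the 25 in both comparisons, as for 0.651% and 0.632% in the genome. These regions needed a peak in the 2-month list, whose smallest summit was the highest of the 3 in genome means (6.34), although not in RPM.

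Between 10 and 20 months the levels were close. Of the 25 regions 10 were higher at 20 months, against 63.0% in the genome. The median ratio was 0.980 and the ratio of summed reads 1.02 (interval 0.955 to 1.10). For the whole genome the median ratio was 1.06. In RPM the median ratio was 0.786 and the ratio of summed reads 0.821 (0.766 to 0.881). At 20 months 3 of 25 regions were higher in RPM. The ratio of summed reads thus turned with the scale. The scales differ only by fragment length, which was 222 bp at 10 months and 178 bp at 20 months. In the genome 19.0% of regions were higher in RPM, with a median ratio of 0.851. The interval of the ratio to the genome mean lay above 1 for 1 region and below 1 for none, where 3.35% and 0.557% of the regions of the genome did so. The 1 region was that of *Itgal* at chr7:134397280-134397647, 42.13 kb upstream of the TSS, with 9, 28, and 61 reads over the summit in order of age. Its ratio of 20 to 10 months was 1.95 (1.23 to 3.17), or 1.57 in RPM.

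**Figure D4:**
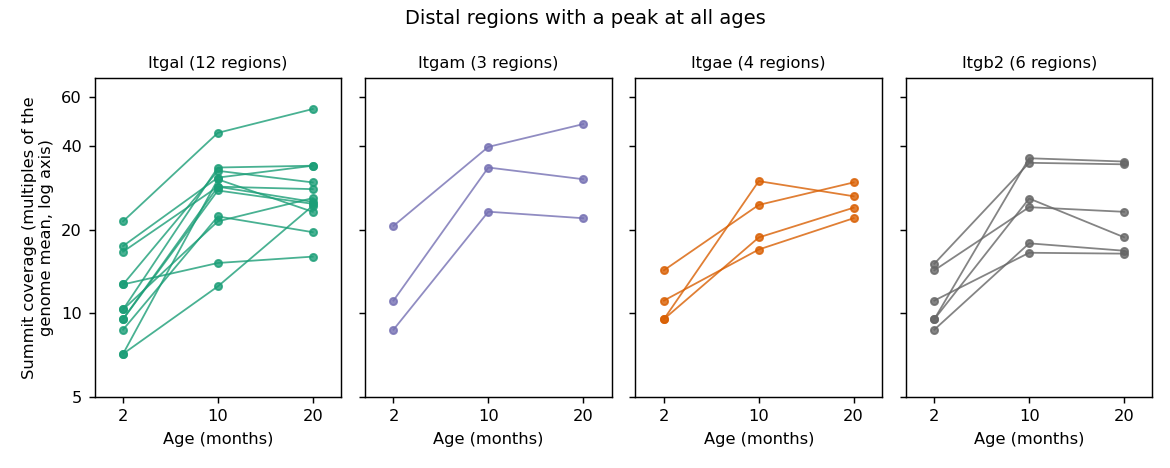
Summit coverage (vertical axis, multiples of the genome mean, log axis) at 2, 10, and 20 months in the 25 distal regions called at every age, 1 line per region and 1 panel per gene, each point coming from 1 library. Every line rises from 2 to 10 months. The 6 lines of *Itgb2* end at 20 months below their value at 10 months, at ratios of 0.726 to 0.993.

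For each gene with a region called at all ages, the one with the highest mean summit coverage over the 3 ages illustrates these levels. For *Itgal* it lay at chr7:134488503-134489594, 48.73 kb downstream of the TSS and past the end of the gene, with 27, 100, and 136 summit reads at 2, 10, and 20 months. These are 21.41, 44.59, and 54.32 times the genome mean, so the level at 10 months was 2.08 times that at 2 months (interval 1.35 to 3.32) and the level at 20 months 2.54 times (1.67 to 3.99). Its summit stood at percentile 96.9, 99.5, and 99.8 of the 3 lists. The region of *Itgam* chosen in this way was nearly as high.

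For *Itgam* the region lay at chr7:135110032-135111427, 94.73 kb upstream, with 26, 89, and 120 summit reads, or 20.62, 39.69, and 47.93 times the genome mean. The ratio to 2 months was 1.93 (1.23 to 3.11) at 10 months and 2.33 (1.51 to 3.70) at 20 months. At *Itgb2* the region chr10:77084426-77084969, 91.33 kb downstream, held 19, 78, and 86 reads (15.07, 34.78, and 34.35 times the genome mean), with ratios of 2.31 (1.38 to 4.04) and 2.28 (1.38 to 3.97). The summits of another region, chr10:77044475-77045329, were higher at both later ages (36.12 and 35.15 times the genome mean) and lower at 2 months (9.52 times). The 6 regions of *Itgb2* had 20 to 10 month ratios between 0.726 and 0.993, each with an interval that included 1, and the ratio of their summed reads was 0.932 (0.802 to 1.08) in genome means and 0.747 (0.643 to 0.868) in RPM. *Itgae* had the region of highest mean at chr11:72861378-72862124, 41.97 kb upstream, with 18, 55, and 74 reads (14.27, 24.53, and 29.56 times the genome mean). The ratio to 2 months was 1.72 (0.994 to 3.11) at 10 months, where the interval included 1, and 2.07 (1.22 to 3.68) at 20 months. At 10 months its highest summit lay elsewhere, at chr11:72989989-72990527, with 12, 67, and 66 reads in order of age and a ratio of 10 to 2 months of 3.14 (1.68 to 6.38).

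*Itgax* had no region with a peak at all ages. Its only distal region, chr7:135349003-135349844, began 75.92 kb downstream of the TSS, was not listed at 2 months, and held 66 summit reads at 10 months and 66 at 20 months (29.43 and 26.36 times the genome mean). These summits are over 4 times the smallest summit of the 2-month list in genome means.

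The peaks nearest to the TSS are given for *Itgb2* and *Itgal*, the genes with a distal peak within 25 kb. For *Itgb2* the nearest peak lay 14.82 kb upstream at 2 months with 11 summit reads (8.72 times the genome mean), 13.42 kb upstream at 10 months with 50 reads (22.3 times), and 13.5 kb upstream at 20 months with 59 reads (23.6 times). The peak of 2 months lay in another region than the nearest peaks of the later ages. For *Itgal* the nearest peaks at 22.24, 21.7, and 21.77 kb upstream had 21, 30, and 45 reads (16.65, 13.38, and 17.97 times the genome mean). At 10 and 20 months this was a smaller peak beside the region that held the nearest peak of 2 months, which reached 28.54 and 27.96 times the genome mean.

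The limit of 100 kb ran close to peaks of *Itgal*. The peaks of *Itgal* just inside it lay 99.62 kb from the TSS at 10 months (33 summit reads) and 99.64 kb at 20 months (48 reads). Just outside were peaks at 100.55 kb at 2 months (10 reads), 100.25 kb at 10 months (42 reads), and 100.28 kb at 20 months (44 reads). *Itgax* had its nearest peaks outside at all ages, from 107.84 kb with 14 reads at 2 months to 107.44 kb with 83 reads at 10 months and 107.3 kb with 88 reads at 20 months. *Itgae* had peaks from 107.98 kb, *Itgb2* from 111.39 kb, and *Itgam* from 126.27 kb outward.

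The other 8 integrins of the sheet, mostly receptors for collagen, laminin, and fibronectin, are given beside these 5. Their distal peaks numbered 11, 33, and 38 in order of age, or 3.45 times as many at 20 as at 2 months, and 6, 7, and 7 of the 8 genes had one. A promoter peak was present at 3, 5, and 6 of the 8, against 0, 0, and 1 of the 5 leukocyte integrin genes. The intervals of these shares for the 8 genes (8.52 to 75.5%, 24.5 to 91.5%, and 34.9 to 96.8%) overlapped those of the 5 at each age. *Itga5*, the α chain of the fibronectin receptor, had 1, 8, and 8 distal peaks and 1, 2, and 2 promoter peaks. *Itga4*, an α chain used by lymphocytes to bind *Vcam1*, had no distal peak at any age and 1 promoter peak at 10 and at 20 months.

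The ligands and partners of leukocyte adhesion on the sheet (*Icam1*, *Vcam1*, *Cdh1*, *Sele*, *Selp*, *Pecam1*, and *Cd44*) had 15, 25, and 37 distal peaks at 2, 10, and 20 months. A promoter peak was found at 2, 2, and 3 of these 7 genes. *Icam1*, the ligand of the dimers of *Itgal* and *Itgam* with *Itgb2*, had 2, 9, and 12 distal peaks and no promoter peak at any age. *Cdh1*, the E-cadherin bound by the *Itgae* integrin, had 0, 3, and 7, a rise of 7 that *Itga5* and *Itgb4* (3, 8, and 10) also showed. *Pecam1*, an adhesion molecule of endothelium, had 11, 9, and 11, and the selectin gene *Selp* had none.

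Other genes of the sheet that leukocytes express had most of their distal peaks at 1 gene. *Itga4*, *Entpd1*, *Mmp8*, *Mmp9*, and *Mmp12* together had 9, 19, and 21 distal peaks in order of age, at 2, 3, and 3 of the 5 genes. *Mmp9*, the neutrophil and macrophage gelatinase, held 8, 12, and 13 of them. A promoter peak was found at 1, 2, and 2 of the 5 (20, 40, and 40%), beside the 26.2%, 34.5%, and 50% of all 84 genes, and the part of leukocyte number in these values was not tested.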

How the data were processed

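H3K27ac ChIP-seq of TA muscle was deposited as 1 peak list per age. The submitters' processing notes name Bowtie2, mm9, and MACS2 2.1.0. A control library for the mouse peaks is not given in the sources used here. Each deposited list gives positions, a score, a fold (summit over background, a ratio), and −log10 values of p and q, all made by the authors per library. The score was not used, and folds were not compared between lists.

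Summit reads were solved from the fold and the −log10 p (tolerance 0.001) for all peaks, which was tested on simulated data, and divided by the lowest background of the list, the genome mean. RPM scales reads to library depth (uniquely mapped reads). The genome mean follows both depth and fragment length (148, 222, and 178 bp in order of age). Gene positions are those of the study's sheet. Shares have Clopper-Pearson and ratios exact conditional binomial intervals. Reads are not independent molecules, so these cover counting error only. The tools were scipy 1.17.1, numpy 2.4.6, and pandas 2.3.3 under Python 3.11.15, with matplotlib 3.10.9 for figures.

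The 5 genes, the gene lists, and the alternatives were chosen with earlier results of these data known. All 5 genes were named, as were the genes with the largest and smallest changes in the lists of other integrins and of ligands, up to 3 neighbors on each side, and the genes with the most similar numbers of distal peaks. *Entpd1*, *Mmp8*, *Mmp9*, *Mmp12*, the endothelial genes, and *Mylpf*, which is outside the rule on neighbors, were named as markers. The 1 region of *Itgal* that stood apart, 1 other high region each of *Itgae* and *Itgb2*, and the weak peaks inside genes were named after their values were seen. Some genes are not reported here, and the lists of ligands and of leukocyte genes, unlike the 84 genes, were counted without them.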

Additional observations from a re-analysis of the deposited data

How the results depend on the processing

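No paired analysis was possible because each age has 1 library, and for the same reason no library could be left out. Of 51 values under other settings, 35 stayed within 1.5 times (counts) or within the counting interval of the ratio of summed reads (median ratios), and 16 did not. Some of the 35 could not move. The list of equal length at 2 months is the 2-month list itself, and a promoter count of 0 within 2.5 kb stays 0 within 1 kb. With an outer limit of 50 kb the distal peaks numbered 6 at 2 months, 17 at 10 months, and 14 at 20 months in place of 36, 55, and 57. They were 15, 35, and 40 when only the peaks of smaller q, 50% of a list, were kept, 36 at 10 and 36 at 20 months in lists of equal length, and 17, 44, and 47 where a summit had to reach 10 genome means. Merging peaks within 1 kb gave 22, 36, and 35. The count of 1 promoter peak at 20 months became 0 within 1 kb and 0 in lists of equal length. In RPM the median ratios were 3.12 for 10 against 2 months, 2.80 for 20 against 2 months, and 0.786 for 20 against 10 months. RPM differs from the genome mean by fragment length alone. The causes of the other moves were not tested beyond the construction of each setting. The smallest summits listed held 8, 10, and 10 reads in order of age, and the part of depth in what was listed was not tested.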

Other observations

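The genes of the sheet with the most similar numbers of distal peaks over the 3 libraries were found by the sum of absolute differences, which is a description over 3 values that share their libraries. *Thbs3*, a thrombospondin gene, was nearest to *Itgal* with 14, 19, and 20 distal peaks at 2, 10, and 20 months (sum of differences 6). *Col2a1*, a collagen of cartilage, and *Itgb3*, a β chain of platelets, were nearest to *Itgam* with 2, 5, and 6 and 1, 4, and 4 (sum 4 each). *Mmp9* and *Sparc*, a collagen-binding glycoprotein gene, were nearest to *Itgae* with 8, 12, and 13 and 7, 12, and 14 (sum 5 each). *Lamb2*, a laminin chain, was nearest to *Itgb2* with 11, 12, and 17 (sum 6), and 13 genes were tied at a sum of 1 from *Itgax*.

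The endothelial genes of the sheet (*Pecam1*, *Sele*, *Selp*, and *Vcam1*) had 12, 11, and 15 distal peaks in order of age, and a promoter peak at 1, 1, and 2 of the 4.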
